A study of Mus musculus with 12 samples.

Results

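The 9 genes described here mark the marginal zone and follicular subsets of mouse splenic B cells. They were chosen by name: Cr2, Cd1d1, Dtx1, Notch2, S1pr3, Myof, Cd9 and Plac8 stand for the marginal zone side, and Fcer2a, which encodes CD23, for the follicular side. They are 9 of the 53715 genes in the count table, and all 9 were among the 18542 genes with enough counts to be tested. The 12 RNA-seq libraries of mouse spleen form 3 groups of 4. All mice carried the genotype BXSB.Cg-Cd8atm1Mak Il15tm1Imx Yaa, called Yaa DKO: the lupus-prone BXSB background, the Yaa translocation of an X chromosome segment with Tlr7 onto the Y chromosome, and targeted Cd8a and Il15 alleles. The first group, 6 weeks of age and untreated, is the pre-symptomatic one. The others are symptomatic mice of 10 weeks, one group untreated and one drinking water with 6 g/L 2-deoxyglucose (2DG), a glucose analogue that inhibits glycolysis. Since every group shares the genotype, none gives the level of a spleen without Yaa or the targeted alleles, and no 2DG group of 6 weeks was among the samples.

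Marginal zone B cells line the outer rim of the white pulp, where blood passes macrophages, and respond early to blood-borne antigen. Follicular B cells recirculate and make up most of the splenic B cell pool. The choice between these fates turns on Notch2: its ligand Dll1 on stromal cells of the spleen triggers proteolytic release of the receptor's intracellular part, which joins the DNA-binding protein Rbpj and the Maml coactivators to switch on targets such as Dtx1 and Hes1. Marginal zone cells then carry high Cr2 (CD21) and CD1d with little CD23, whereas follicular cells carry CD23 and less CD21. The sphingosine 1-phosphate receptors hold marginal zone cells in place against the pull of the follicle.

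The RNA came from the whole spleen, so fewer cells of a type and less RNA per cell cannot be told apart. Total counts ran from 15596040 to 22480545 per library at 6 weeks, 20692818 to 26079979 in untreated spleens at 10 weeks and 21581820 to 23835453 with 2DG. Levels are counts scaled to the normalised library size (CPM), as mean ± SD of 4 libraries. The samples are not stated to come from separate mice, so a p-value is relative to the variation among these samples only, and that may be technical. The untreated 10-week libraries varied most. Their spread between replicates (biological coefficient of variation) was 0.241, compared with 0.127 for the 6-week and 0.114 for the 2DG libraries. Replicate 8 was the highest untreated 10-week library in several members, and stood far apart in Cr2, at 957 CPM beside 394 in the next library. B cell markers were present throughout: 12 pan-B genes summed to 5974 ± 405 CPM at 6 weeks, 4958 ± 1222 in untreated spleens at 10 weeks and 5496 ± 302 with 2DG. Among the untreated 10-week libraries this sum was 5274, 3533, 4581 and 6444 CPM in replicates 5 to 8. Both genes named as targeted had reads in every library, with 582 to 1414 counts of Cd8a and 82 to 169 of Il15, and gene totals do not separate an intact from a disrupted transcript.

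Promoter windows are shown for 4 members whose levels or roles the results turn on: Cr2 and Dtx1, which had the largest differences with 2DG, S1pr3, and Cd9. Each holds the 250 bases before and 50 after a transcription start, from RefSeq on GRCm38.p6, written along the gene's strand, and 8 of the 9 members had such a window. The capitals mark TGGGAA, the short core read by Rbpj, or its reverse complement.

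Cr2, chr1:195176670-195176969, minus strand: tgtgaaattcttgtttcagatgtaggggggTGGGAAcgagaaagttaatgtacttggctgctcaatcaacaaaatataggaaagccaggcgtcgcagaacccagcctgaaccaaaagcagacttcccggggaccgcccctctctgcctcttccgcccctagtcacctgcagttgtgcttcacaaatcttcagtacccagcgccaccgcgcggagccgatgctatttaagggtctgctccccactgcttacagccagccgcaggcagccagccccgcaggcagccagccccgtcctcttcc

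Dtx1, chr5:120711620-120711919, minus strand: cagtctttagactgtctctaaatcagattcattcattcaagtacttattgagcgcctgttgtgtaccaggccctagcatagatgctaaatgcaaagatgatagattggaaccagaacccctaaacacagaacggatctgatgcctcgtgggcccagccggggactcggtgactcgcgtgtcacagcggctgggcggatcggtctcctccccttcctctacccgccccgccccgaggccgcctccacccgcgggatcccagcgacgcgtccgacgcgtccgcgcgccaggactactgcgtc

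S1pr3, chr13:51408368-51408667, plus strand: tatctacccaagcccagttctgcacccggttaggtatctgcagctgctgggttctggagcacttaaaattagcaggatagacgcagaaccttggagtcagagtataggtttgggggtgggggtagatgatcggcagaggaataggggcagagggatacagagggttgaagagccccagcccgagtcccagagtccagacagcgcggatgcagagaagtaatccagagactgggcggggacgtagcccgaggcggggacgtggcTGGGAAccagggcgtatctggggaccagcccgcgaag

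Cd9, chr6:125494711-125495010, minus strand: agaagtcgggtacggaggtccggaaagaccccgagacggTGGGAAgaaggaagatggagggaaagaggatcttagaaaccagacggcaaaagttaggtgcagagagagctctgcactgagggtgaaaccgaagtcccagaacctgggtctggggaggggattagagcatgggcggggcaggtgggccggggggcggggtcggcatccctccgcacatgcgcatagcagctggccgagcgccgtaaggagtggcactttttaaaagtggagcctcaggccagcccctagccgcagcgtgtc

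Counting the start as position 1, TGGGAA begins at -220 in Cr2, -211 in Cd9 and 14 in S1pr3, and these letters are not in the Dtx1 window. Over all members and both strands, 6 of 11 windows held TGGGAA, as did 25.6% of 32851 windows across the genome. The longer GTGGGAA, which contains it, was in 2 of the 11, those of Cr2 and Cd9, against 6.38% of all windows. CAGGTG, an E-box of the kind E2A proteins bind, began at -88 in Cr2 on the opposite strand and at -73 in Cd9. Of all windows 20.2% held it. Among the windows not printed, those of Fcer2a, the follicular gene, held TGGGAA in windows 2 and 3. Its window 2 also held CAGGTG at -244 and -99, and window 2 of Plac8 held TGGGAA. The windows of Notch2 and Myof, and window 1 of Fcer2a and of Plac8, held no TGGGAA. A match of letters is not a measured binding site.

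The members spanned a wide range of levels. Per kb of exon at 6 weeks, Plac8 stood highest at 174 ± 15.2 CPM per kb, followed by Fcer2a at 110 ± 17.8 and Cr2 at 90.8 ± 9.76. Cd9 stood at 39.0 ± 4.53 CPM per kb, Notch2 at 29.1 ± 3.64 and Dtx1 at 24.2 ± 4.404. S1pr3 stood at 17.0 ± 1.53, Cd1d1 at 13.001 ± 1.24 and Myof at 5.49 ± 0.292 CPM per kb. The ranges of neighbouring members overlapped between Fcer2a and Cr2, between Cd9 and Notch2, and between Notch2 and Dtx1. With 2DG at 10 weeks Cr2, at 123 ± 7.75 CPM per kb, stood above Fcer2a, at 108 ± 11.1, with overlapping ranges.

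The design gives 3 comparisons: age in untreated spleens, 2DG against no treatment at 10 weeks, and treated 10-week against untreated 6-week spleens. Between 2DG and untreated spleens at 10 weeks, Dtx1 and Cd1d1 rose, 2 of the 9 members, where 7.42% of the 18542 tested genes passed in either direction and 2.16% passed upward. A gene passed when its edgeR p-value, adjusted by Benjamini-Hochberg over all tested genes, was under 0.05. The median log2 change of the 9 members was 0.27, beside 0.01 over all tested genes. In 3 members, Cd1d1, Dtx1 and S1pr3, every 2DG library stood above every untreated 10-week library, against 4.48% of all tested genes. An unadjusted p under 0.05 was found for 7 members and for 24.5% of tested genes. DESeq2 passed 3 members, with Cr2 the third, where it passed 11.4% of genes. These shares are also those to read the list counts against, for 2DG at 10 weeks. With age none of the 9 passed in edgeR, beside 0.00539% of tested genes, which is 1 gene. Unadjusted p was under 0.05 for 3 members (Dtx1, S1pr3 and Cd9) and for 17.1% of tested genes, and DESeq2 and voom also passed none, where DESeq2 passed 3.76% of genes. Scaled to the pan-B genes instead, which moved the median of all genes with age to 0.33, the age differences of Cd1d1, Notch2, S1pr3, Cd9 and Plac8 were positive, between 0.07 and 0.17. Between 2DG at 10 weeks and untreated spleens at 6 weeks none of the 9 passed in edgeR, beside 0.129% of tested genes. There, Cd1d1 and Plac8 had an unadjusted p under 0.05, as did 16.9% of tested genes, and DESeq2, which passed 5.64% of genes, and voom each passed Plac8. The edgeR fit takes each gene's spread over all libraries, the more variable untreated 10-week ones included. With the compared groups only, 3 members passed in edgeR (Cr2, Cd1d1 and Plac8). Many more genes passed there too, as counted in the closing section. The second comparison shares its untreated 10-week libraries with the first and its 2DG libraries with the third, so the 3 sets of values are not independent.

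Leaving out untreated 10-week replicate 8 kept both calls and added others. Without it, a setting added after the data were seen for the gene lists and planned for the members, 5 members were higher with 2DG (Cr2, Cd1d1, Dtx1, Notch2 and S1pr3), where 11.8% of 18773 genes passed and 4.05% upward. In that fit Cr2 and Dtx1 were lower at 10 than at 6 weeks, 2 of 9 members, where 8.33% of genes passed and 705 were lower.

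**Figure D1:**
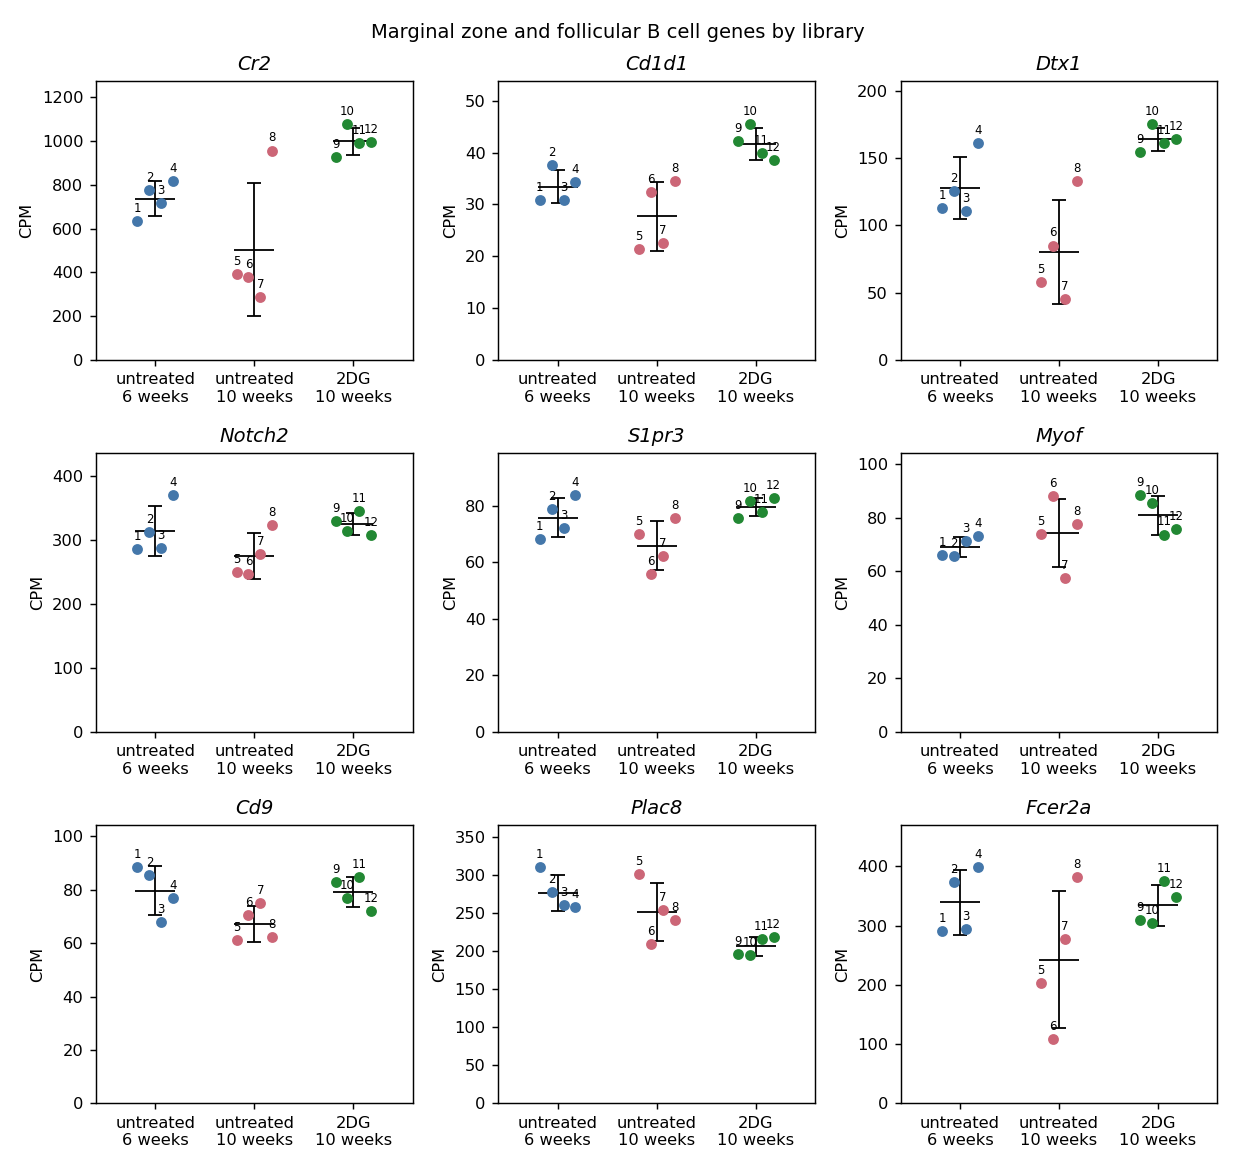
Level of each of the 9 members in each of the 12 libraries, in CPM on the vertical axis, by group on the horizontal axis, with bars at the group mean and its SD. In the Cr2 and Dtx1 panels the untreated 10-week replicate 8 (957 and 133 CPM) lies above the other untreated 10-week libraries, and every 2DG library of Dtx1 lies above all of them.

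Dtx1 (ENSMUSG00000029603.15, chromosome 5, 120680202 to 120711927, minus strand, GRCm38) encodes Deltex1, a ubiquitin ligase that is itself a direct Notch target and a standard readout of Notch2 signalling in B cells. It stood at 113, 126, 111 and 161 CPM in the 6-week replicates 1 to 4. In the untreated 10-week replicates 5 to 8 it stood at 58.0, 85.0, 44.9 and 133 CPM, and in the 2DG replicates 9 to 12 at 155, 176, 161 and 164 CPM. The 2DG libraries were tight and all above the untreated 10-week ones, whose highest, replicate 8, lay inside the 6-week range. The group means were 128 ± 23.2, 80.2 ± 38.9 and 164 ± 8.78 CPM. Dtx1 rose 2.04-fold with 2DG at 10 weeks, by 1.03 ± 0.28 (SE) on the log2 scale (edgeR adjusted p = 0.0495). That call sat at the threshold: it held in 1 of the 12 fits that left out a library, the one without untreated 10-week replicate 8 (log2 change 1.38, edgeR adjusted p = 0.00162), and the adjusted p ran up to 0.13 in the others. It was also lost with no filter on low counts (adjusted p = 0.126) and in a fit of the 10-week libraries only (adjusted p = 0.114). Between 6 and 10 weeks the log2 change was -0.67 with SE 0.28 (edgeR adjusted p = 0.252), and without replicate 8 Dtx1 fell by 1.02 (edgeR adjusted p = 0.0136). The 2DG libraries and the 6-week libraries overlapped, with a log2 difference of 0.36 (edgeR adjusted p = 0.567).

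Notch2 (ENSMUSG00000027878.11, chromosome 3, 98013527 to 98150361, plus strand), the receptor without which marginal zone B cells do not form, varied less. It stood at 286, 313, 288 and 370 CPM at 6 weeks, at 250, 247, 278 and 324 CPM in untreated 10-week spleens, and at 331, 315, 346 and 308 CPM with 2DG. The groups overlapped, since replicate 8 at 324 CPM lay among the 2DG libraries. The log2 difference was 0.24 with SE 0.10 for 2DG at 10 weeks (edgeR adjusted p = 0.158) and -0.19 with age (edgeR adjusted p = 0.342). Without replicate 8, Notch2 was higher with 2DG by a log2 change of 0.32 (edgeR adjusted p = 0.0383). In the annotation, 5.02% of its exon length is shared with the predicted gene Gm42820 on the same strand. Dtx1 per Notch2, a log2 ratio within a library, was -1.31 ± 0.08 at 6 weeks, -1.89 ± 0.60 in untreated spleens at 10 weeks and -0.99 ± 0.13 with 2DG. The lowest 2DG ratio, -1.10, lay above the highest at 6 weeks, -1.20, and the highest in untreated 10-week spleens, -1.29. Dtx1 thus stood higher relative to its receptor in every 2DG library than in any other library, a description with no test.

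The other Notch genes that passed with 2DG at 10 weeks over all libraries all fell, while others passed upward under other settings. Among 7 other ligands and receptors, Notch1, the receptor of T cell development, fell from 75.0 ± 9.67 to 60.04 ± 2.90 CPM with 2DG at 10 weeks (log2 change -0.32, edgeR adjusted p = 0.0467). Dll1, the marginal zone ligand, stood at 28.1 ± 7.83 and 37.6 ± 1.09 CPM without passing, and is named after its values were seen. Notch3, a receptor of vascular smooth muscle, also named after its values were seen, stood at 12.5 ± 5.01 and 20.7 ± 1.03 CPM, all higher (log2 difference 0.73, edgeR adjusted p = 0.0972). It passed upward in DESeq2 (adjusted p = 0.0338), in voom (0.0265), and in edgeR without untreated 10-week replicate 6 (0.0446) or without replicates 6 and 8 (0.00527). Of 11 processing genes, 3 fell and none rose, beside 5.26% of tested genes downward and 2.16% upward. Among them were Aph1a, a subunit of the gamma-secretase that frees the intracellular part (log2 change -0.42, edgeR adjusted p = 0.045), and Mib1, a ligase that activates Notch ligands (log2 change -0.42, edgeR adjusted p = 0.0338). None of 10 genes of the nuclear complex and its restraint passed in edgeR or DESeq2 over all libraries, and none had an unadjusted p under 0.05. Maml2, a coactivator, came nearest with a log2 difference of 0.27 (edgeR adjusted p = 0.22). It passed upward in 1 of 9 settings other than leaving out 1 library, and in 0 of the 12 fits without a library.

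Of 7 other Notch target genes, Il2ra, which encodes the interleukin 2 receptor alpha chain and is also a T cell activation gene, fell from 18.5 ± 2.55 to 12.0 ± 1.39 CPM (log2 change -0.62, edgeR adjusted p = 0.0126). The median log2 change of the list was 0.57, beside 0.01 over all tested genes. Hes1, a repressor and classic Notch target, stood at 21.3 ± 5.72 CPM in untreated 10-week spleens and 31.7 ± 4.09 with 2DG, all 4 higher (edgeR adjusted p = 0.0957). Hey1, a related repressor, stood at 2.86 ± 1.21 and 5.10 ± 0.891 CPM, also all higher (edgeR adjusted p = 0.0892). Both are named after their values were seen, and both passed upward in DESeq2 (adjusted p = 0.044 and 0.0349) and in edgeR without untreated 10-week replicates 6 and 8 (0.00912 and 0.0105). Hey1 also passed without replicate 6 (edgeR adjusted p = 0.0382). Without replicate 8, edgeR called Hey2, a further repressor of the same family, higher. The Il2ra call was lost in 2 of the 12 fits without a library, that of Notch1 in 9, Aph1a in 11 and Mib1 in 7, and over all settings run the adjusted p of these genes reached 0.14.

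Cr2 (ENSMUSG00000026616.15, chromosome 1, 195136811 to 195176716, minus strand) encodes complement receptor CD21, which in the mouse also yields CD35 by splicing and is carried by follicular dendritic cells as well as B cells. It stood at 635, 776, 717 and 818 CPM at 6 weeks. In untreated 10-week spleens it stood at 394, 377, 288 and 957 CPM, and with 2DG at 927, 1080, 989 and 996 CPM. Replicate 8 of the untreated 10-week group was above every 6-week library and within the 2DG range, while replicates 5, 6 and 7 were below every library of the other groups. The means were 737 ± 79.2, 504 ± 305 and 998 ± 62.8 CPM. The log2 difference for 2DG at 10 weeks was 0.99 with SE 0.31 (95% interval 0.30 to 1.67, edgeR adjusted p = 0.0806), and it did not pass. Without replicate 8 it was 1.49 (edgeR adjusted p = 8.13e-05), and DESeq2 on all libraries passed it (adjusted p = 0.00834). With age the log2 difference was -0.55 with SE 0.31 (edgeR adjusted p = 0.394), and without replicate 8 Cr2 fell by 1.06 (edgeR adjusted p = 0.00124). All 4 2DG libraries stood above all 6-week libraries, at a log2 difference of 0.44 (edgeR adjusted p = 0.526), as in 7.98% of tested genes. That difference passed in 2 of 9 settings other than leaving out 1 library, among them the compared groups only (edgeR adjusted p down to 0.0153).

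Follicular dendritic cells are the other carriers of CD21 in the spleen. Of their 7 listed markers 6 were found, and these summed to 1475 ± 119 CPM at 6 weeks, 1534 ± 42.4 in untreated spleens at 10 weeks and 1509 ± 131 with 2DG. Their part in the Cr2 values was not tested. None of the 9 other genes of the complement and B cell coreceptor list passed in edgeR with 2DG at 10 weeks, 2 had an unadjusted p under 0.05, and DESeq2 passed 1. C3, the complement component whose fragments CD21 binds, stood at 1119 ± 260 and 837 ± 17.5 CPM, all 2DG libraries lower (log2 difference -0.42, edgeR adjusted p = 0.0922).

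Cd1d1 (ENSMUSG00000028076.12, chromosome 3, 86995834 to 86999441, minus strand) encodes CD1d, which presents lipids to natural killer T cells and is high on marginal zone cells. It stood at 30.9, 37.5, 30.9 and 34.3 CPM at 6 weeks, and at 21.4, 32.4, 22.5 and 34.5 CPM in untreated 10-week spleens. With 2DG it stood at 42.3, 45.6, 40.0 and 38.6 CPM, above every library of both other groups. Cd1d1 rose 1.504-fold with 2DG at 10 weeks, by 0.59 ± 0.14 (SE) on the log2 scale (edgeR adjusted p = 0.0273). The call was lost without untreated 10-week replicate 5 or 7, or without 2DG replicate 9, 10 or 11, with adjusted p up to 0.0917, and in a fit of the 10-week libraries only (adjusted p = 0.0815). Scaled to the pan-B genes instead of all genes, the change was 0.38 (edgeR adjusted p = 0.352). The log2 difference was -0.27 with age (edgeR adjusted p = 0.353) and 0.32 between 2DG and 6 weeks (edgeR adjusted p = 0.28). The latter passed in 2 of 9 settings other than leaving out 1 library, among them the compared groups only (edgeR adjusted p down to 0.0361).

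The neighbouring copy Cd1d2 rose as well, from 2.06 ± 0.447 to 3.48 ± 0.490 CPM (log2 change 0.75, edgeR adjusted p = 0.0263). The pair are near-identical in sequence, and the rule for dividing their shared reads is not given, so both values are uncertain. The Cd1d2 call was lost in 4 of 12 fits without a library. The other 3 genes of the lipid presentation list did not pass.

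S1pr3 (ENSMUSG00000067586.4, chromosome 13, 51408639 to 51422797, plus strand) encodes a sphingosine 1-phosphate receptor that is prominent on marginal zone B cells and also found on stromal and endothelial cells. It stood at 68.3, 78.7, 72.2 and 83.6 CPM at 6 weeks, at 70.0, 55.6, 62.1 and 75.6 CPM in untreated 10-week spleens, and at 75.7, 81.5, 77.8 and 82.7 CPM with 2DG. The lowest 2DG library and the highest untreated 10-week library were nearly level, so the groups did not overlap by a narrow gap. The log2 difference was 0.27 with SE 0.09 (edgeR adjusted p = 0.0915), and without replicate 8 it was 0.34 and passed (edgeR adjusted p = 0.0298). With age it was -0.20 (edgeR adjusted p = 0.287). In the annotation 45 exon bases of S1pr3 lie opposite the predicted gene Gm32834. None of 10 other genes of the sphingosine 1-phosphate axis passed in edgeR with 2DG at 10 weeks, 3 had an unadjusted p under 0.05, and DESeq2 passed 2. S1pr1, the receptor for egress and recirculation, which also stands in the follicular list, was at 149 ± 23.3 and 194 ± 13.3 CPM (log2 difference 0.38, edgeR adjusted p = 0.053). Endothelial markers, 9 genes, summed to 549 ± 77.3 CPM in untreated 10-week spleens and 593 ± 44.3 with 2DG, and their part in the S1pr3 values was not tested.

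Fcer2a (ENSMUSG00000005540.10, chromosome 8, 3681737 to 3694175, minus strand) encodes CD23, the low-affinity receptor for immunoglobulin E that defines follicular B cells. It stood at 290, 373, 295 and 399 CPM at 6 weeks, at 203, 108, 277 and 381 CPM in untreated 10-week spleens, and at 309, 304, 376 and 348 CPM with 2DG. The untreated 10-week libraries spread over the whole range: replicate 6 was lowest of all 12 and replicate 8 was second highest. The log2 difference was 0.46 with SE 0.30 for 2DG at 10 weeks (95% interval -0.20 to 1.12, edgeR adjusted p = 0.384), -0.48 with age (edgeR adjusted p = 0.443) and -0.02 between 2DG and 6 weeks (edgeR adjusted p = 0.982). Replicate 6, where Fcer2a was lowest, also had the lowest pan-B sum, and a relation between these values was not tested.

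Of 10 other follicular B cell genes none passed in edgeR with 2DG at 10 weeks, 4 had an unadjusted p under 0.05, and DESeq2 passed 1; their median log2 change was 0.20. Without replicate 8, S1pr1, Cxcr5 and Ccr7 were higher with 2DG, and these with Foxo1 were lower with age. In that fit 4.05% of the 18773 tested genes were higher with 2DG, and 705 genes were lower with age. None of the 6 partners and sheddases of CD23 passed in edgeR, 2 had an unadjusted p under 0.05 and DESeq2 passed 1. Fcer1g, the Fc receptor gamma chain, came nearest, at 96.4 ± 29.0 and 62.2 ± 5.15 CPM (log2 difference -0.63, edgeR adjusted p = 0.104).

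Cr2 per Fcer2a sets the CD21 gene against the CD23 gene in the same library. The log2 ratio was 1.13 ± 0.11 at 6 weeks, 1.03 ± 0.74 in untreated spleens at 10 weeks and 1.58 ± 0.18 with 2DG. The lowest 2DG ratio, 1.40, was above the highest at 6 weeks, 1.28. In untreated 10-week spleens the ratio was 0.96, 1.80, 0.06 and 1.33 in replicates 5 to 8, from nearly equal CPM of both genes in replicate 7 to more than 3-fold more Cr2 in replicate 6, whose linear ratio was 3.48. The untreated 10-week ratios thus reached from below both other groups to near the highest 2DG ratio, 1.83.

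Relative to the 12 pan-B genes, Cr2 was at -3.02 ± 0.06 log2 at 6 weeks, -3.43 ± 0.55 in untreated 10-week spleens and -2.46 ± 0.14 with 2DG. Every 2DG library, down to -2.57, lay above every other library, of which the highest was untreated 10-week replicate 8 at -2.75. Dtx1 relative to pan-B genes showed the same order, at -5.56 ± 0.18, -6.04 ± 0.65 and -5.07 ± 0.13, with the lowest 2DG value at -5.17 and the highest elsewhere at -5.30. Fcer2a relative to pan-B genes overlapped between all groups, at -4.15 ± 0.14, -4.46 ± 0.48 and -4.04 ± 0.13. With all genes scaled to the pan-B sum, edgeR gave log2 changes with 2DG at 10 weeks of 0.89 for Cr2 (adjusted p = 0.0151) and 0.87 for Dtx1 (adjusted p = 0.0419). This scaling moved the median of all genes to -0.20 in that comparison.

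**Figure D2:**
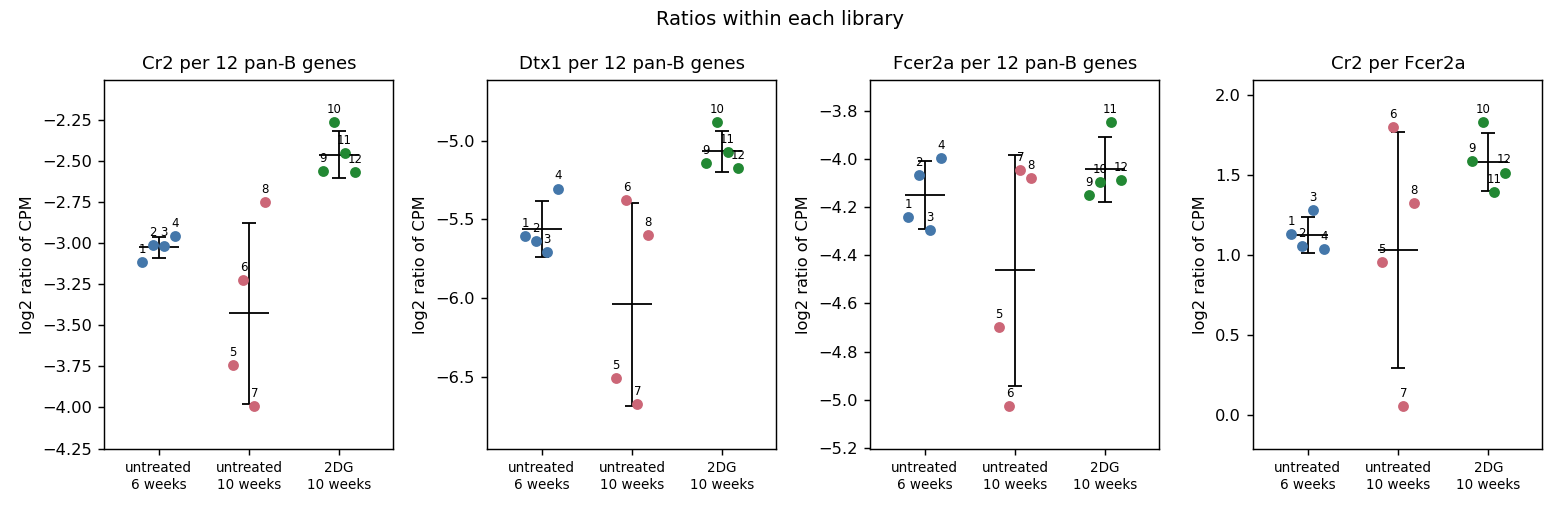
Log2 ratios within each library, one panel per ratio with the groups on the horizontal axis, points for the 12 libraries and bars for mean and SD. For Cr2 per pan-B genes the 2DG libraries, from -2.57 to -2.26, lie above all others, while Cr2 per Fcer2a in untreated 10-week spleens runs from 0.06 to 1.80.

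Cd9 (ENSMUSG00000030342.8, chromosome 6, 125460266 to 125494791, minus strand) encodes a tetraspanin of marginal zone and B-1 cells, which megakaryocytes and platelets also carry. It stood at 88.5, 85.4, 67.9 and 76.9 CPM at 6 weeks, at 61.1, 70.5, 75.0 and 62.5 CPM in untreated 10-week spleens, and at 82.9, 77.0, 84.7 and 72.2 CPM with 2DG. All groups overlapped, and replicate 8 was not high. The log2 difference was -0.24 with SE 0.09 with age (edgeR adjusted p = 0.21), 0.24 for 2DG at 10 weeks (edgeR adjusted p = 0.142) and -0.01 between 2DG and 6 weeks (edgeR adjusted p = 0.978). The annotation places 10.7% of its exon length opposite the predicted gene Gm26728, and these libraries do not mark strand. The 9 megakaryocyte and platelet markers summed to 647 ± 132, 382 ± 73.0 and 548 ± 161 CPM in the same order, and their part in the Cd9 values was not tested.

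Among 8 other B cell tetraspanins, Cd63, a lysosomal and exosomal tetraspanin, fell from 53.9 ± 8.03 to 35.9 ± 1.76 CPM with 2DG at 10 weeks (log2 change -0.59, edgeR adjusted p = 0.00483). Tspan32, a tetraspanin of blood cells, rose from 86.9 ± 12.7 to 113 ± 6.86 CPM (log2 change 0.38, edgeR adjusted p = 0.0416), a call lost in 9 of 12 fits without a library.

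Plac8 (ENSMUSG00000029322.12, chromosome 5, 100553725 to 100572245, minus strand) encodes a small cysteine-rich protein found in marginal zone B cells and also in myeloid and plasmacytoid dendritic cells. It stood at 311, 277, 260 and 258 CPM at 6 weeks, at 302, 209, 254 and 241 CPM in untreated 10-week spleens, and at 196, 195, 216 and 219 CPM with 2DG. It was the 1 member whose 2DG level lay below both other groups in the mean, and every 2DG library was below every 6-week library, as in 7.69% of tested genes. The log2 difference was -0.42 with SE 0.10 between 2DG and 6 weeks (edgeR adjusted p = 0.0883) and -0.28 for 2DG at 10 weeks (edgeR adjusted p = 0.101). The difference at 10 weeks passed in edgeR without untreated 10-week replicate 6 (log2 change -0.37, adjusted p = 0.0245) and without replicates 6 and 8 (-0.44, adjusted p = 0.00716). The difference from 6 weeks passed in DESeq2 (adjusted p = 0.0088) and voom (adjusted p = 0.0121), and in edgeR without untreated 10-week replicate 6 (adjusted p = 0.0387). Plasmacytoid dendritic cell markers, 7 genes, summed to 536 ± 5.01, 494 ± 73.2 and 433 ± 32.7 CPM. Tcf4 held most of that sum, with means of 333, 345 and 267 CPM. With 2DG at 10 weeks, 4 of the 7 had a positive log2 change and 3 a negative one, with a median of 0.267. The mean of Siglech was 26.002 CPM untreated and 66.9 with 2DG, and that of Ccr9 15.4 and 21.03, both with overlapping groups. The 7 monocyte markers summed to 1054 ± 21.1, 1071 ± 257 and 1069 ± 51.2 CPM. The part of either cell type in the Plac8 values was not tested.

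Myof (ENSMUSG00000048612.16, chromosome 19, 37899036 to 38043577, minus strand) encodes myoferlin, a membrane repair and fusion protein of the ferlin family. It stood at 66.2, 65.9, 71.2 and 73.3 CPM at 6 weeks, at 73.9, 88.0, 57.6 and 77.6 CPM in untreated 10-week spleens, and at 88.4, 85.5, 73.7 and 75.9 CPM with 2DG. The log2 difference with age was 0.10 (edgeR adjusted p = 0.669), and Myof was the 1 member not below 0 there, before any scaling to pan-B genes. Every 2DG library stood above every 6-week library (log2 difference 0.23, edgeR adjusted p = 0.317), and the 10-week groups overlapped (0.12, edgeR adjusted p = 0.533). Of 5 other ferlin genes 3 could be tested, and Fer1l6 rose from 1.32 ± 0.531 to 2.89 ± 0.833 CPM at 16 to 91 counts per library, with overlapping groups (log2 change 1.12, edgeR adjusted p = 0.0301), a call lost in 4 of 12 fits without a library.

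**Figure D3:**
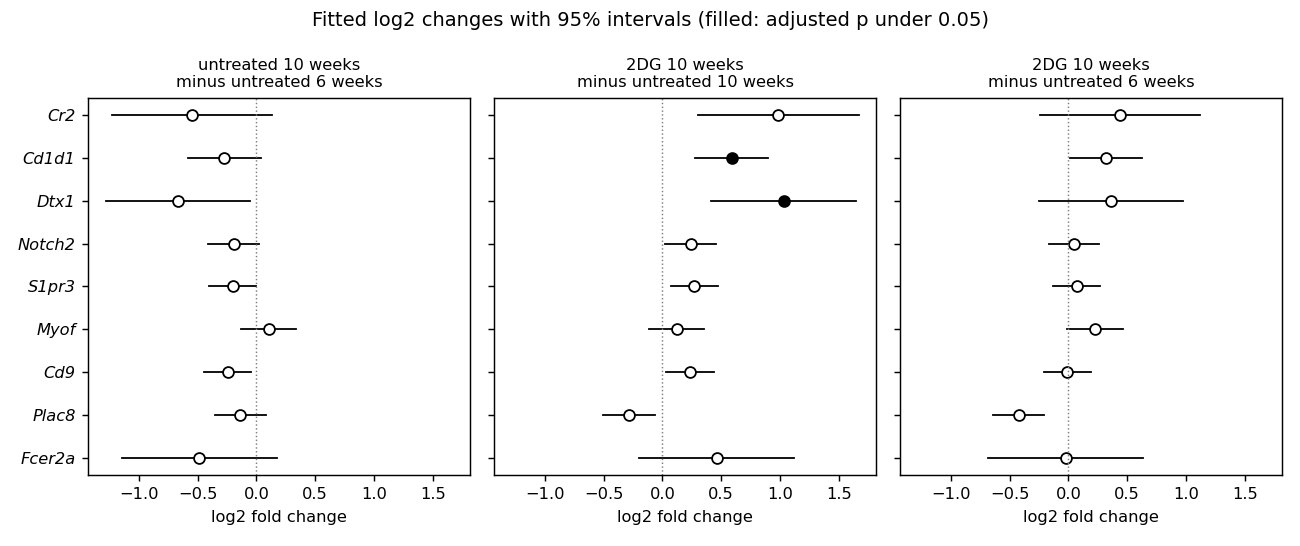
Log2 change of each member in the 3 comparisons on the horizontal axis, with 95% intervals from the edgeR fit and one row per member. For 2DG at 10 weeks the intervals of Dtx1 and Cr2 are wide around 1.03 and 0.99, and Plac8 lies at -0.28.

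Most of the 12 other genes of the marginal zone list did not pass. With 2DG at 10 weeks, 1 of 12 fell and none rose, with a median log2 change of 0.12. Of these 12, 8 had an unadjusted p under 0.05, beside 24.5% of tested genes, and DESeq2 passed 6, beside 11.4%. The gene that fell was Mzb1, an endoplasmic reticulum chaperone of marginal zone B cells and plasma cells, from 542 ± 151 to 150 ± 24.6 CPM (log2 change -1.85, edgeR adjusted p = 0.00176). Mzb1 also stands in the plasma cell list, whose 8 genes summed to 3147 ± 782 CPM at 6 weeks, 5316 ± 1582 in untreated spleens at 10 weeks and 2111 ± 461 with 2DG, and 7 of the 8 fell. Without replicate 8, 3 of the 12 were higher with 2DG (Dph5, Tm6sf1 and Pik3r4) and 3 lower (Fcrl5, Itgb2 and Mzb1). In that fit 4.05% of the 18773 tested genes were higher with 2DG and 1449 genes were lower.

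Of 6 B-1 cell genes 3 fell with 2DG at 10 weeks and none rose, beside 5.26% of tested genes downward and 2.16% upward. Bhlhe41, a transcription factor that maintains B-1a cells, fell from 34.0 ± 7.96 to 15.7 ± 3.55 CPM (log2 change -1.11, edgeR adjusted p = 0.00408). Plscr1, a membrane scramblase and interferon-induced gene, fell by 0.87 (edgeR adjusted p = 0.0103). Ctla4, a checkpoint receptor of T cells that B-1a cells also express, fell by 1.08 (edgeR adjusted p = 0.0135) from 3.52 ± 0.662 CPM. The Ctla4 call was lost without 2DG replicate 10 or 11, with adjusted p up to 0.0542. The rest of the list did not pass. Cd5 had a log2 difference of -0.09 (edgeR adjusted p = 0.753), Cd300a 0.02 (edgeR adjusted p = 0.962) and Zbtb32 -0.67 (edgeR adjusted p = 0.158). None of the 7 transitional B cell genes passed in edgeR, 3 had an unadjusted p under 0.05 and DESeq2 passed 1. Cd24a, high on transitional cells and on red cell precursors, stood at 866 ± 381 and 1543 ± 384 CPM (edgeR adjusted p = 0.106). The 8 erythroid markers summed to 7342 ± 5267 CPM in untreated 10-week spleens and 14665 ± 4127 with 2DG.

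None of the 12 pan-B genes passed in edgeR or DESeq2 with 2DG at 10 weeks, and none had an unadjusted p under 0.05; their median log2 change was 0.15. With age none passed in either tool and 3 had an unadjusted p under 0.05, beside 17.1% of tested genes. Without replicate 8 edgeR called 7 of the 12 lower at 10 weeks, among them Ms4a1 and Pax5. In that fit 8.33% of 18773 genes passed in either direction and 705 were lower. Replicate 8 had the highest pan-B sum of its group, 6444 CPM, so leaving it out lowers the pan-B level of that group. The list counts were made with no other library left out. Fcmr, the receptor for immunoglobulin M, came nearest with 2DG, at 227 ± 81.2 and 292 ± 41.9 CPM (edgeR adjusted p = 0.322). Without replicate 8, Fcmr and Blk, a kinase of the B cell receptor pathway, were called higher with 2DG, 2 of 12 beside 4.05% of genes upward.

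The marginal zone also has its own macrophages and stroma. The 8 niche genes summed to 661 ± 33.1 CPM at 6 weeks, 548 ± 282 in untreated spleens at 10 weeks and 850 ± 88.1 with 2DG. Within the untreated 10-week group the sum was 212, 898, 502 and 580 CPM in replicates 5 to 8. Replicate 5 was low, and the sum of replicate 6 was among the 2DG libraries. Cxcl12 alone held 685 of the 898 CPM in replicate 6. Marco, a scavenger receptor of marginal zone macrophages, stood at 132 ± 29.1, 72.3 ± 47.7 and 162 ± 27.9 CPM, with 13.7 CPM in replicate 5 and 56.7 in replicate 6. All 2DG libraries of Marco were above the untreated 10-week ones (log2 difference 1.16, edgeR adjusted p = 0.192). Cd209b, the SIGN-R1 lectin of the same macrophages, stood at 35.6 ± 6.07, 16.3 ± 13.4 and 29.3 ± 7.73 CPM (edgeR adjusted p = 0.45 for 2DG at 10 weeks). It was at 1.77 CPM in replicate 5 and 8.12 in replicate 6, beside 19.2 in the lowest 2DG library. None of the 8 passed in edgeR or DESeq2, and 1 had an unadjusted p under 0.05. The part of the niche cells in the members' values was not tested.

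Over all lists the pathway genes outside the members numbered 126, of which 124 were tested. With 2DG at 10 weeks 3 rose and 10 fell, beside 2.16% of tested genes upward and 5.26% downward, with a median log2 change of 0.07. In that comparison 44 had an unadjusted p under 0.05, beside 24.5% of tested genes, and DESeq2 passed 27, beside 11.4%. With age none of the 124 passed in edgeR. Of them 32 had an unadjusted p under 0.05, beside 17.1% of tested genes, and DESeq2 passed 8, beside 3.76%. Between 2DG and 6 weeks none passed in edgeR. There 19 had an unadjusted p under 0.05, beside 16.9% of tested genes, and DESeq2 passed 11, beside 5.64%.

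**Figure D4:**
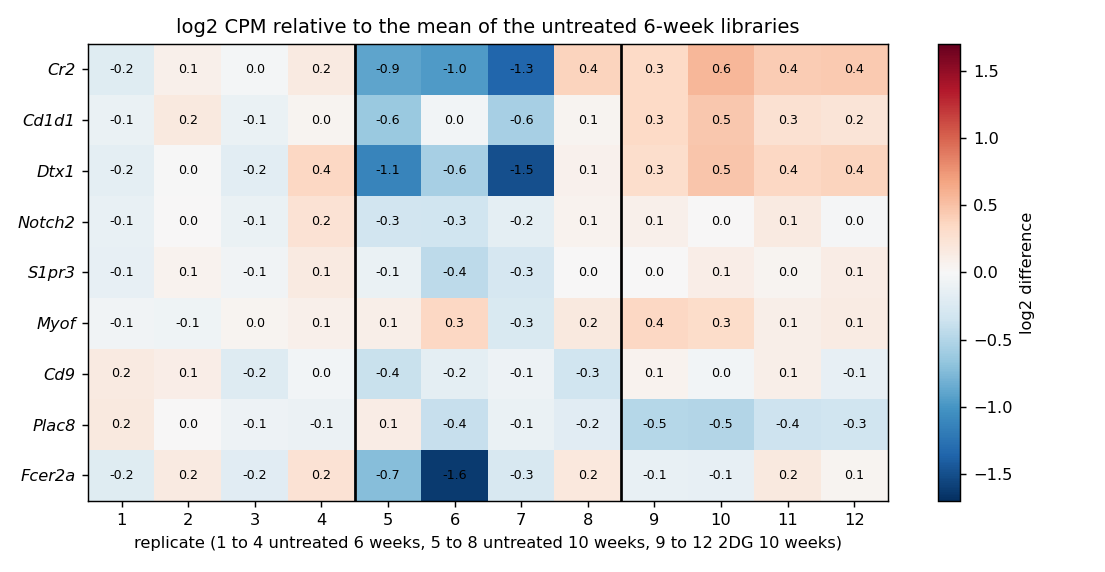
Log2 CPM of each member (rows) in each library (columns, grouped by treatment and age), relative to the member's mean in the 6-week libraries, with colour and cell text giving the log2 difference. The Cr2, Dtx1 and Fcer2a rows vary most, with SDs over the 12 libraries of 0.64, 0.63 and 0.52, and the untreated 10-week replicates 5, 6 and 7 hold their lowest values.

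The members fell into a variable and a stable set across the 12 libraries. Cr2, Dtx1 and Fcer2a had SDs of log2 CPM of 0.64, 0.63 and 0.52, Cd1d1 0.33, and the other 5 between 0.17 and 0.23. Likeness between patterns was measured as the root mean square difference of centred log2 CPM over the 12 libraries, where 0 means the same pattern. Among members, Dtx1 and Cr2 differed by 0.18, and S1pr3 and Notch2, both stable, by 0.11. Over 11343 candidate genes, the closest to Cr2 were Ackr2 (0.23), Lrrc3 and Trim7, and the closest to Dtx1 were Nebl (0.20), Kcng1 and Pglyrp2. Fcer2a was closest to Sh2b2 (0.19), Fcmr (0.19) and Nrep, and Cd1d1 to Hspa12a (0.09), Ptpn14 and Sema3g. A median gene differed from Cr2 by 0.62 and from Cd1d1 by 0.35, and a stable member has small differences from many genes.

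Among the closest genes of the stable members were Zfp395, Cog1 and Kdm4a for Notch2, Mknk2, Mettl3 and Bin1 for S1pr3, Plaur, Ppp6r2 and AU022252 for Myof, Kif3a, Apba1 and Siah1a for Cd9, and, for Plac8, Tmem184b and Shmt1. Ackr2, an atypical chemokine receptor that scavenges inflammatory chemokines, stood at 10.9 ± 0.635 CPM at 6 weeks, 8.14 ± 3.04 in untreated spleens at 10 weeks and 15.05 ± 2.12 with 2DG, and rose with 2DG at 10 weeks (log2 change 0.88, edgeR adjusted p = 0.0195). Hspa12a, a distant member of the heat shock protein 70 family, stood at 10.1 ± 1.79 and 14.9 ± 0.603 CPM at 10 weeks and also rose (log2 change 0.56, edgeR adjusted p = 0.0142). Both were picked for a pattern close to that of a member, so their changes are a description.

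**Figure D5:**
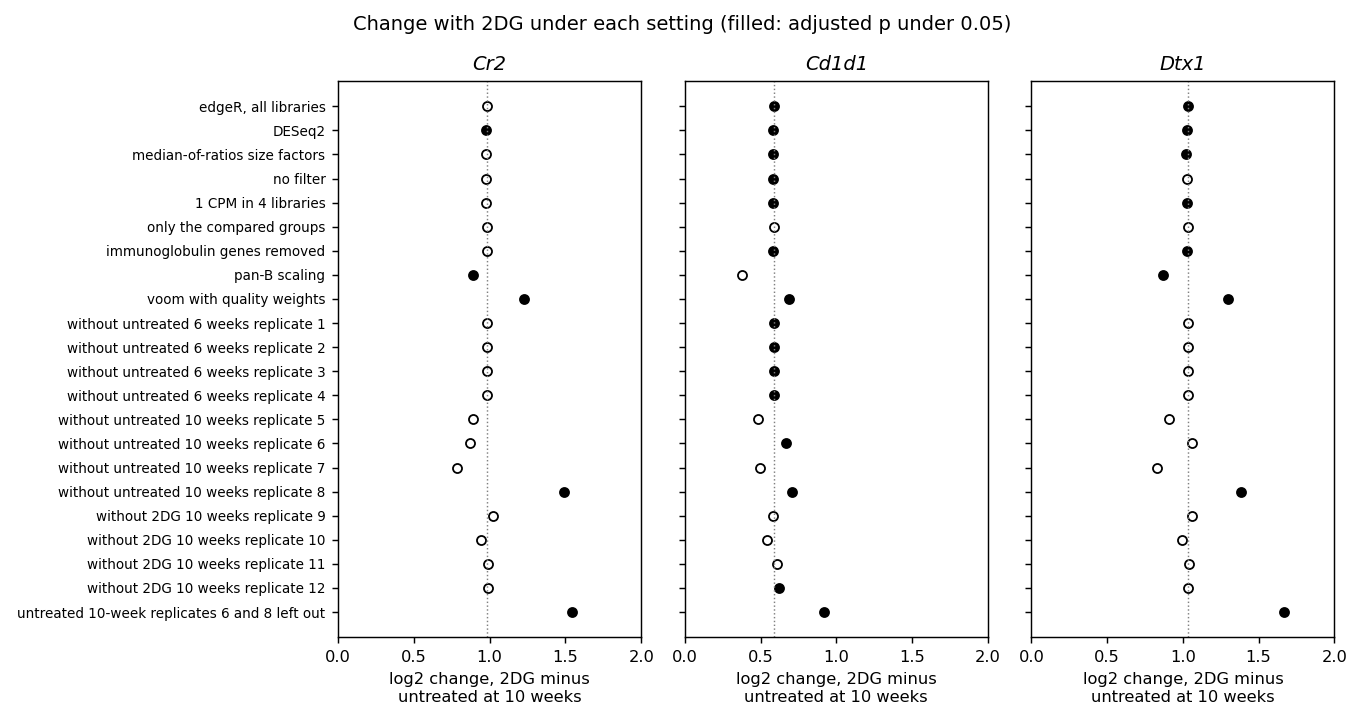
Log2 change of Cr2, Cd1d1 and Dtx1 for 2DG at 10 weeks on the horizontal axis, one row per processing setting, with filled points where the adjusted p was under 0.05. Leaving out untreated 10-week replicate 8 takes Cr2 from 0.99 to 1.49 and Dtx1 from 1.03 to 1.38.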

How the data were processed

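Poly(A)-selected libraries were made from total spleen RNA with an unstranded TruSeq v2 kit, per the labels' protocols. A single table with raw counts of each gene in 12 libraries was deposited by the authors. The submitters' processing notes list Bowtie2 2.2.0, RSEM 1.2.12 and GRCm38, with no steps; the handling of reads that fit several genes is not stated in the sources used here.

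Of 53715 identifiers, 53620 were paired with symbols from GENCODE M21. Counts were tested with edgeR 4.0.16 in R 4.3.3 (TMM scaling, filterByExpr by group, robust glmQLFit and glmQLFTest over all 12 libraries), with Benjamini-Hochberg adjustment over the 18542 genes tested and a threshold of 0.05. SE is the size of the log2 change divided by the square root of F, and 95% intervals use the fit's degrees of freedom and are not adjusted for the number of genes. The script was tested on simulated data with known changes. Alternatives were DESeq2 1.42.0, voom with quality weights (limma 3.58.1), other scalings and filters, fits of the compared groups only, each library left out, and untreated 10-week replicates 6 and 8 left out.

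The members and the gene lists were chosen with earlier results of these data known. Named genes were the 9 members, the 3 tested genes nearest each in pattern (average log2 CPM of at least 2, prior count 2), list genes that passed (at most 4 per list and comparison) or else the one with the smallest p, and the most abundant markers where a result touched them; a few of these are not reported here. Promoter windows came from RefSeq on GRCm38.p6.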

Additional observations from a re-analysis of the deposited data

Results flagged for a closer look

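In the untreated 10-week group, Cr2 in replicate 8 stood at 957 CPM, and the next library at 394 CPM. The gap was 0.841 of the group's whole range, above Dixon's 95% critical value for 4 samples. Plac8 relative to the 12 pan-B genes was -4.74 log2 in the same replicate and -4.17 in the next, a gap of 0.859 of the range, so that library was far from the others in the opposite direction. Both flags come from 1 library, which also had the highest pan-B sum of its group. They are 2 of 60 sets of 4 values examined, and chance flags about 1 in 20.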

How the results depend on the processing

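No paired analysis was possible because the replicate numbers run from 1 to 12 across the groups and no number is shared. With age, 1 gene passed in the reported fit, against 682 in DESeq2, 102 with no filter, 0 with the compared groups only, 52 with pan-B scaling, 18 with voom, 2303 without untreated 10-week replicates 6 and 8, and 0 to 1563 with 1 library left out. Members that passed with age numbered 0, against 3 without replicates 6 and 8, and 0 to 2 with 1 library left out. For 2DG at 10 weeks, 1376 genes passed, against 2304 in DESeq2, 581 with the compared groups only, 703 with pan-B scaling, 3193 without replicates 6 and 8, and 514 to 2209 with 1 library left out. The settings not listed here, voom and no filter among them, passed between 581 and 3193 genes. Members numbered 2, against 3 in DESeq2, 3 with voom, 1 with no filter, 0 with the compared groups only, 4 without replicates 6 and 8 (3 higher and Plac8 lower), and 0 to 5 with 1 library left out. For 2DG against 6 weeks, 24 genes passed, against 902 in DESeq2, 98 with no filter, 1367 with the compared groups only, 2 with pan-B scaling, 1665 with voom, 758 without replicates 6 and 8, and 1 to 354 with 1 library left out. Members numbered 0, against 1 in DESeq2, 3 with the compared groups only (Cr2, Cd1d1 and Plac8), 1 with voom, 3 without replicates 6 and 8, and 0 to 1 with 1 library left out.

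Small differences changed sign. Pan-B scaling gave with age 0.067 for Cd1d1, 0.12 for Notch2, 0.10 for S1pr3, 0.10 for Cd9 and 0.17 for Plac8, for 2DG at 10 weeks -0.10 for Myof, and for 2DG against 6 weeks 0.11 for Cd9 and 0.11 for Fcer2a. That scaling moved the median of all genes to 0.33 (age), -0.20 (2DG at 10 weeks) and 0.12 (2DG against 6 weeks). Voom gave -0.007 for Myof with age and 0.01 for Cd9 between 2DG and 6 weeks. Without replicates 6 and 8 the age difference was -0.065 for Myof and 0.016 for Plac8. With 1 library left out, the difference between 2DG and 6 weeks ran from -0.078 to 0.046 for Cd9 and from -0.090 to 0.065 for Fcer2a. None of these passed. The cause of these shifts was not tested. Fer1l6, Hey1, Hey2, Ctla4 and Cd1d2 rest on few counts, so their values are among the least precise of those named.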
